A study of Arabidopsis thaliana with 12 samples.

Results

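The end of the night was compared with its early part in seedlings of Arabidopsis thaliana that overexpress CIRCADIAN CLOCK ASSOCIATED 1 (CCA1). The comparison sets 3 arrays from seedlings harvested at lights on (6am, Zeitgeber time 0, ZT0) against 3 arrays from seedlings harvested 2 h after lights off (12am, ZT18). These are 6 of the 12 arrays of the series, chosen by the time in their title. Another label, for the time of harvest, differed from the title on 9 of the 12 arrays and on 5 of these 6, and was not used to group them. Both groups were CCA1-ox plants of the Columbia background, 10 days old, raised on agar medium that held 1% sucrose in days of 16 h light and 8 h darkness. RNA came from the aerial part. The design text names wild-type plants too, which are not analysed here, so the comparison is between times of 1 genotype and says nothing of the effect of CCA1. As background, a constitutive viral promoter drives CCA1 in this line, and the labels name 1 line. Time in darkness and clock time change together over these 6 h and cannot be told apart. The other 6 arrays, 3 each at ZT6 and ZT12 in the light, entered the fit to share the estimate of the spread and show where each level stood in the day.

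CCA1 is a MYB transcription factor that in wild-type plants is most abundant around dawn and represses genes that peak in the evening. Plants that overexpress it lose rhythms in constant conditions, while light and dark still drive daily changes. During the night, leaves live on starch and sugars stored by day, and elongation growth in seedlings under day and night cycles is commonly fastest towards dawn. Expansins, xyloglucan endotransglucosylases and pectin methylesterases act on the cell wall in that growth. Small heat-shock proteins, with larger chaperones and co-chaperones, hold unfolded proteins in solution and help them refold.

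Transcript levels changed widely over these 6 h, in both directions to a like extent. Levels are deposited log2 expression values, with a floor of 2.06 and a detection limit set here at 4, and a change is ZT0 minus ZT18. Of 14016 probe sets tested, 5187 passed limma at an adjusted p under 0.05 (37%), of which 2600 were higher at ZT0 (18.6%) and 2587 lower (18.5%). The median change over all probe sets was 0.0036, and the middle of the distribution ran from -0.32 at the lower quartile to 0.32 at the upper. Calls of at least 2-fold numbered 1202 (8.58% of all tested), with 530 higher and 672 lower, and calls of at least 8-fold numbered 15 and 20. All 3 arrays of one time lay above all 3 of the other in 6128 probe sets (43.7%). At the level of genes, with 1 probe set each, 2687 of 7573 passed (35.5%), 1352 higher (17.9%) and 1335 lower (17.6%), and these shares are the background for the counts of gene groups below. In the plot of change against level, called probe sets lie on both sides of 0 at all levels above the floor.

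**Figure D1:**
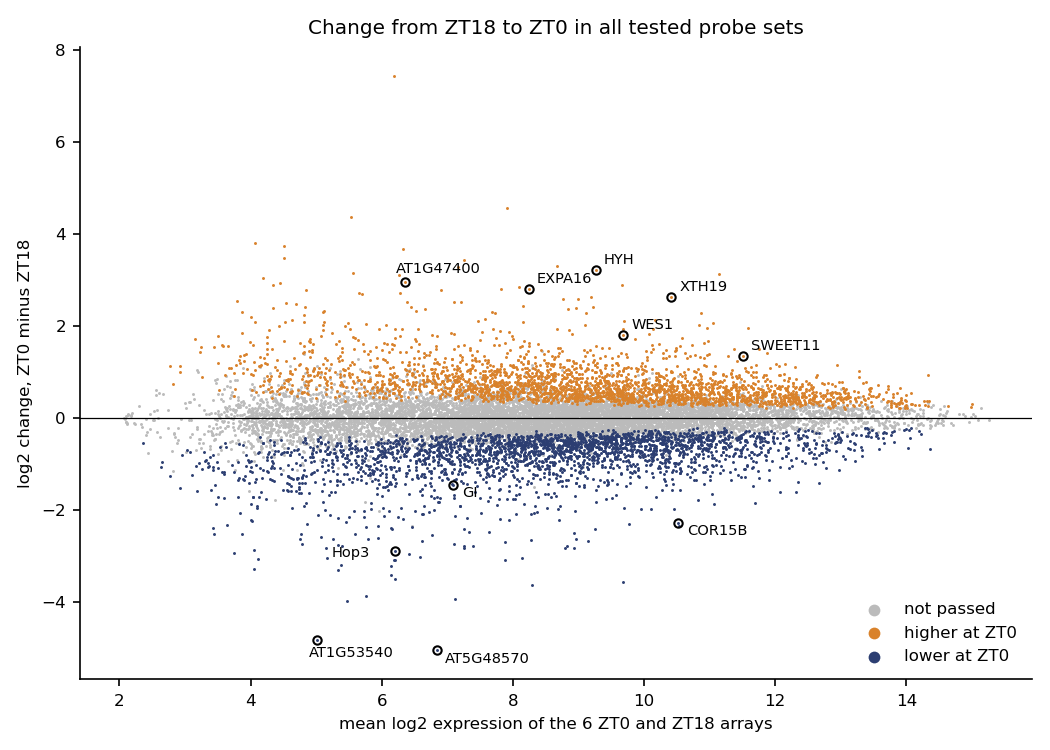
Log2 change from ZT18 to ZT0 (vertical axis) against the mean log2 expression of the 6 arrays (horizontal axis) for 14016 tested probe sets, with orange points higher at ZT0, blue points lower at ZT0 and grey points not past the threshold. Circles mark genes named in the text, among which AT5G48570 had the lowest change (-5.05) and HYH the highest (3.20).

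Array differences bear on these counts. The SD of the difference between arrays over all tested probe sets was 0.329 to 0.433 within ZT0, 0.366 to 0.499 within ZT18 and 0.581 to 0.776 between the times. The signal of 3' minus 5' control probe sets (actin, GAPDH and ubiquitin), a sign of RNA quality, was 3.57, 4.06 and 4.02 at ZT18 and 3.09, 3.43 and 3.20 at ZT0. Each ZT18 array was above each ZT0 array, with a difference of 0.64, and an exact permutation test over the 20 splits gave p = 0.1, two-sided, the smallest p that 3 against 3 allows. When this signal entered the fit as a covariate 2788 passed, and 2307 of the 5187 calls (44.5%) were among them. Calls of at least 4-fold were kept in 89.2% of rises and 90.8% of falls, against 34.5% and 38.4% of those under 2-fold. Since the signal itself differed between the times, this fit separates signal and time only in part. A call lost in it need not have a smaller change. Of 19 listed shoot markers 2 could be tested: LHCB4.1 was 14.90, 14.82 and 14.67 at ZT18 and 14.65, 14.49 and 14.77 at ZT0, and LHCB4.2 was 14.52, 14.47 and 14.51 at ZT18 and 14.47, 14.31 and 14.39 at ZT0. Of 16 listed root markers 4 had a probe set, and PYK10 was the only 1 that reached the detection limit on enough arrays to be tested. PYK10 was 13.15, 13.02 and 13.39 at ZT18 and 12.65, 12.55 and 13.02 at ZT0, so its level was high in RNA labelled as aerial. PYK10 was lower at ZT0 (adjusted p = 0.0129), a call lost without ZT0 replicate 1, ZT0 replicate 2 or ZT18 replicate 3 (up to adjusted p = 0.0569). The part of RNA quality or root tissue in the results was not tested beyond the covariate.

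**Figure D2:**
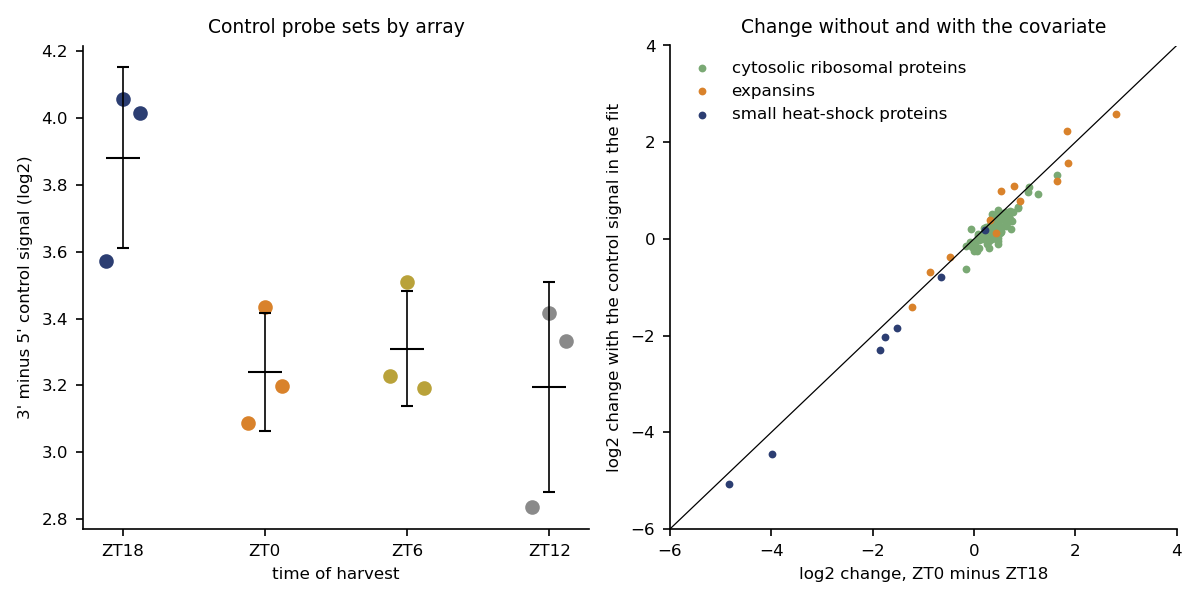
Left, log2 signal of 3' minus 5' control probe sets on each array by time of harvest, with mean and SD (n = 3 arrays); the 3 ZT18 arrays lie above the 3 ZT0 arrays. Right, log2 change from ZT18 to ZT0 of genes in 3 groups without (horizontal axis) and with (vertical axis) that signal in the fit; points of the 103 ribosomal protein genes lie mostly below the line of equal values, and those of the heat-shock group lie near or below it.

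Each called probe set was placed by where its ZT0 and ZT18 arrays stood among all 12 arrays. Of the 2600 probe sets called higher at ZT0, 1331 (51.2%) had their 3 ZT0 arrays above all other arrays, against 1644 of all 14016 tested (11.7%), and 769 (29.6%) had their 3 ZT18 arrays below all others, against 6.59% of all tested. Of the 2587 called lower, 1371 (53.0%) had their ZT0 arrays below all other arrays, against 11.1% of all tested, and 790 (30.5%) had their ZT18 arrays above all others, against 7.13%. ZT0 arrays thus stood at an end of the order more often than ZT18 arrays among all tested probe sets too. These shares describe the calls and were not tested, since a call and a place in the order use the same arrays.

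The steepest named rise was that of HYH, a bZIP transcription factor close to HY5 that acts in light-driven seedling development. HYH was 7.65, 8.55 and 6.78 at ZT18 and 11.10, 10.96 and 10.53 at ZT0, a 9.21-fold rise (log2 change 3.20, SE 0.32, adjusted p = 2.30e-05). Its level at ZT0 did not stand above the day: it was 10.79 ± 0.16 (mean ± SD, n = 3) at ZT6 and 10.85 ± 0.10 at ZT12, so the 3 ZT18 arrays were the low ones. ATIM, named TIMELESS in the annotation after the animal gene, ran differently, with 6.88, 6.21 and 6.90 at ZT18 and 9.75, 9.46 and 9.34 at ZT0 (7.21-fold, adjusted p = 2.53e-06), and 7.09 ± 0.23 at ZT6. For ATIM, the 3 ZT0 arrays stood above the other 9. UPB1, a bHLH factor known in roots for setting the balance of reactive oxygen species, rose from 4.93 ± 0.12 to 7.64 ± 0.77 (6.56-fold, adjusted p = 9.38e-05). FHL, which helps bring phytochrome A into the nucleus, was 7.12, 7.08 and 8.07 at ZT18 and 8.70, 8.07 and 8.96 at ZT0 and also rose (adjusted p = 0.0134), a call lost without ZT18 replicate 2 (adjusted p = 0.0543). Of the 4 measured light-signalling genes, AT3G44450, which encodes an inhibitor of cryptochromes, fell at least 1.54-fold (5.01, 4.84 and 3.77 at ZT18 and 2.89, 3.43 and 3.53 at ZT0, adjusted p = 0.00496), and AT3G52740, of the same kind, was 7.09, 6.28 and 5.94 at ZT18 and 6.14, 5.40 and 5.21 at ZT0 and did not pass (adjusted p = 0.0529). AT3G52740 passed with the replicate number as a block (adjusted p = 0.000352), with the control signal in the fit (adjusted p = 0.00954) and without ZT0 replicate 1, ZT18 replicate 3 or ZT12 replicate 1 (down to adjusted p = 0.0239).

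Genes that act on the cell wall included several of the 15 largest rises. EXPA16, an expansin, was 6.94, 6.65 and 6.92 at ZT18 and 9.83, 9.31 and 9.79 at ZT0, a 6.97-fold rise (log2 change 2.80, SE 0.16, adjusted p = 4.33e-07). EXPA16 was near the detection limit by day, at 3.97 ± 0.01 at ZT6 and 3.96 ± 0.02 at ZT12. XTH19, a xyloglucan endotransglucosylase, was 9.11, 8.50 and 9.68 at ZT18 and 11.72, 11.31 and 12.11 at ZT0 (6.14-fold, adjusted p = 0.000143), with all ZT0 arrays above all ZT18 arrays. ATPMEPCRB (PME41), a pectin methylesterase, was 5.22, 5.28 and 5.22 at ZT18 and 7.68, 7.05 and 8.19 at ZT0 (5.28-fold, adjusted p = 7.64e-05). Of 12 expansin genes tested, 6 rose, 2 fell and 4 did not pass, where 17.9% of all genes rose and 17.6% fell. Their median change was 0.67, against 0.0048 over all genes. EXPA8 rose 3.09-fold and EXPA21 at least 1.73-fold. EXPA21 reached the detection limit on its 3 ZT0 arrays only. It thus entered the test, and the count of 6 rises, through the time at which it was high. EXPB3, in contrast, was 7.75, 7.78 and 7.77 at ZT18 and 6.49, 6.66 and 6.49 at ZT0 and fell (adjusted p = 3.40e-05). The other fall, of EXLA1, did not pass without ZT0 replicate 1, ZT0 replicate 2 or ZT18 replicate 1, and with the control signal in the fit 4 expansins were higher and 1 lower. EXPA8 and EXPB3 were both higher by day than at either night time (10.04 ± 0.21 and 10.39 ± 0.07 at ZT6), while EXPA16 was highest at ZT0. Of 6 xyloglucan endotransglucosylase genes, XTH18 and XTH19 rose, XTH32 fell and 3 did not pass, and XTH18 did not pass with the control signal in the fit (adjusted p = 0.112).

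Of 5 measured auxin-response genes 2 rose and 3 did not pass, where 17.9% of all genes rose. WES1 (GH3.5), which joins auxin to amino acids, was 8.50, 8.79 and 9.06 at ZT18 and 10.61, 10.69 and 10.45 at ZT0, a 3.48-fold rise (SE 0.17, adjusted p = 1.86e-05). IAA29, a repressor of auxin response that marks elongation growth, was 9.74, 9.68 and 10.68 at ZT18 and 11.33, 11.46 and 11.33 at ZT0 (2.53-fold, adjusted p = 0.000829), and both genes were at their highest at ZT0. Of 7 tubulin genes, which encode the building blocks of microtubules, 4 rose (TUB1, TUB6, TUA6 and TUB9), 3 did not pass and none fell, where 17.9% of all genes rose. TUB1 was 8.00, 7.47 and 8.49 at ZT18 and 10.03, 9.42 and 9.97 at ZT0 (3.53-fold, adjusted p = 0.000181). TUA6 was 11.66, 11.90 and 12.05 at ZT18 and 12.48, 12.42 and 12.52 at ZT0 (1.52-fold, adjusted p = 0.000465). TUB1, TUB6 and TUA6 kept their calls with the control signal in the fit, and TUB9 did not. With the mean of 6 control pairs as that signal, 1 tubulin rise passed.

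The TRICHOME BIREFRINGENCE-LIKE (TBL) genes, a family known for acetylating wall polysaccharides, ran mostly the other way. Of 15 tested, 8 fell, 2 rose and 5 did not pass, with a median change of -0.38, where 17.6% of all genes fell. The count of falls was 5 without ZT18 replicate 1 and 6 with the control signal in the fit. AT2G31110 (TBL40) was 7.96, 7.75 and 7.70 at ZT18 and 6.13, 5.57 and 5.68 at ZT0, a 4.02-fold fall (log2 change -2.01, SE 0.20, adjusted p = 2.29e-05). It stood at 5.93 ± 0.21 at ZT6 and 5.92 ± 0.31 at ZT12, so its 3 ZT18 arrays were above the other 9. TBL36 was 10.50, 10.25 and 10.74 at ZT18 and 8.80, 9.13 and 9.31 at ZT0 (adjusted p = 2.93e-05), and TBL38 was 9.60, 9.05 and 9.63 at ZT18 and 7.88, 7.93 and 8.36 at ZT0 (adjusted p = 0.000143). TBL39 rose 2.01-fold in the same seedlings.

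All 3 measured genes of the iron list, 1 gene of the nitrate and peptide transporter family and 1 of 5 SWEET sugar transporter genes were higher at ZT0. AT1G47400, a gene for a short peptide made when iron is scarce, was 5.09, 5.36 and 4.16 at ZT18 and 8.49, 7.58 and 7.42 at ZT0, a 7.79-fold rise (SE 0.35, adjusted p = 7.62e-05). It was higher still by day, at 10.05 ± 0.43 at ZT6 and 11.29 ± 0.40 at ZT12, so ZT18 was its low point. BHLH101, a transcription factor that turns on iron uptake, was 3.82, 3.84 and 3.04 at ZT18 and 4.97, 5.42 and 4.45 at ZT0 (at least 1.93-fold, adjusted p = 0.00143), and PYE, a bHLH factor of iron homeostasis, was 5.59, 5.33 and 5.12 at ZT18 and 6.63, 6.41 and 6.30 at ZT0 (2.15-fold, adjusted p = 0.00111). The iron list holds 29 genes, and PYE did not pass with the control signal in the fit (adjusted p = 0.0857). AT3G21670 (NPF6.4), a member of the nitrate and peptide transporter family, was 6.20, 6.23 and 5.42 at ZT18 and 8.95, 8.65 and 7.80 at ZT0 (5.72-fold, adjusted p = 4.37e-05), with 10.52 ± 0.26 at ZT12. SWEET11, a sucrose exporter that feeds the phloem, was 11.19, 10.73 and 10.60 at ZT18 and 12.34, 12.16 and 12.03 at ZT0, a 2.53-fold rise (adjusted p = 3.81e-05), and its ZT0 arrays stood above all 9 others. SWEET17, a fructose carrier of the vacuole, was 8.12, 8.41 and 8.27 at ZT18 and 7.84, 7.55 and 7.69 at ZT0 and fell (adjusted p = 0.00414). Of 5 SWEET genes tested these 2 passed and 3 did not, so 20% rose and 20% fell, near the 17.9% and 17.6% of all genes.

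**Figure D3:**
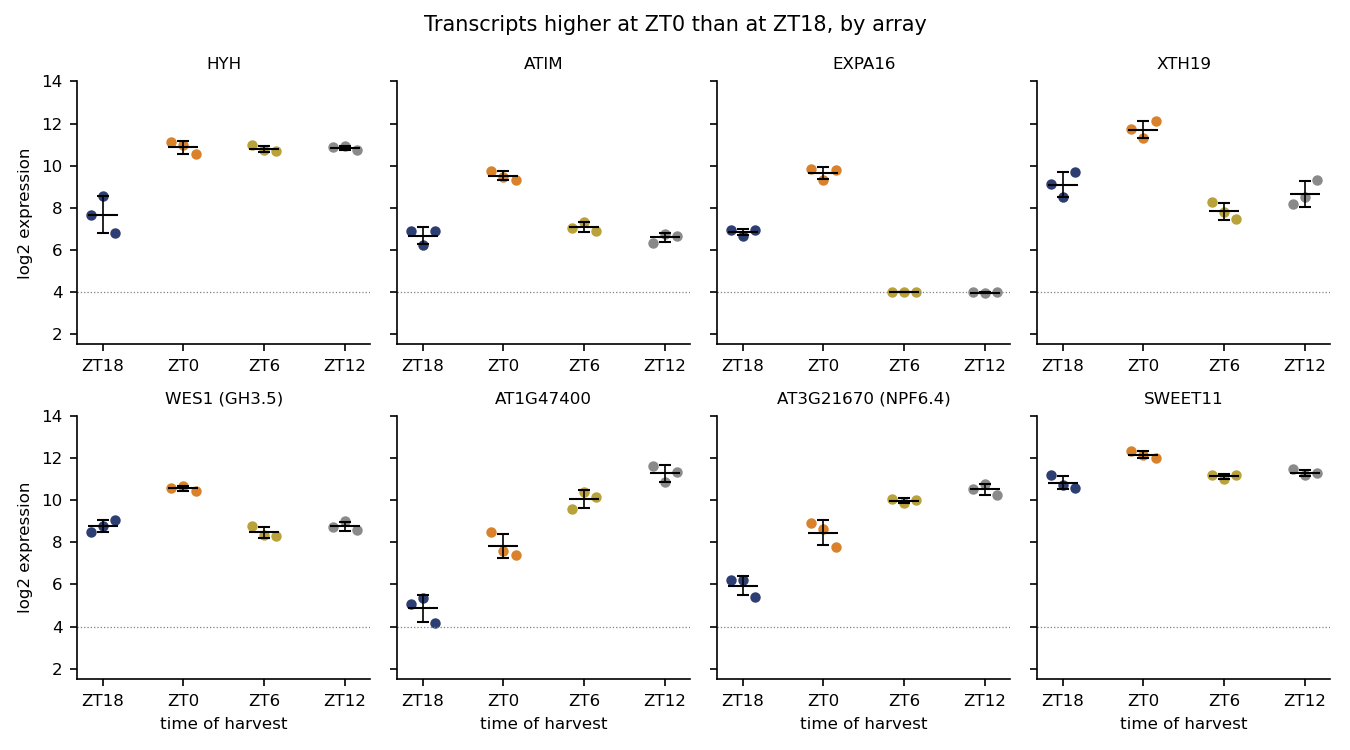
Log2 expression (vertical axis) on each of the 12 arrays at the 4 times of harvest for 8 transcripts that were higher at ZT0 than at ZT18, with mean and SD (n = 3) and a dotted line at the detection limit of 4. HYH, AT1G47400 and AT3G21670 are lowest at ZT18 among the 4 times, and ATIM, EXPA16, XTH19, WES1 and SWEET11 are highest at ZT0.

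The largest named fall was in AT5G48570 (ROF2, FKBP65), a peptidyl-prolyl isomerase that acts as a co-chaperone in the heat-stress response. It was 9.39, 10.02 and 8.67 at ZT18 and 3.66, 4.37 and 4.91 at ZT0, a 33.1-fold fall (log2 change -5.05, SE 0.38, adjusted p = 3.38e-06). It stood between these levels by day, at 7.48 ± 0.51 at ZT6 and 7.50 ± 0.37 at ZT12. AT5G51440, a small heat-shock protein gene, was 8.24, 8.43 and 5.71 at ZT18 and 3.18, 3.16 and 4.09 at ZT0 (15.8-fold, adjusted p = 0.000199), and AT1G53540, another, was 7.83, 8.78 and 5.66 at ZT18 and 2.22, 2.82 and 2.74 at ZT0 (at least 10.7-fold, adjusted p = 0.000117). With values raised to 4, the log2 change of AT5G51440 was -3.43 and that of AT1G53540 was -3.42. Both genes were uneven among ZT18 arrays, with replicate 3 the lowest. Without it the log2 change of AT5G51440 was -4.86, or a 19.8-fold fall with values raised to 4. The fall of AT1G53540 was then at least 19.8-fold, and without replicate 2 it was at least 6.71-fold. AT1G53540 was under the detection limit on all 3 arrays of ZT0 and of ZT12 and at 3.33 ± 0.84 at ZT6. ZT18 was thus the only time at which it stood clearly above that limit. It entered the test, and the count of falls below, only through its ZT18 arrays.

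Of 7 small heat-shock protein genes tested 6 fell, where 17.6% of all genes fell. Loci were assigned to this group from general knowledge of Arabidopsis, since the annotation used here gives them no function, and 9 of 17 had a probe set. AT5G37670 did not pass (4.37, 4.15 and 4.46 at ZT18 and 4.76, 4.23 and 4.67 at ZT0), and the median change of the 7 was -1.75, against 0.0048 over all genes. AT4G21870 was 12.33, 12.11 and 11.54 at ZT18 and 10.59, 10.05 and 9.74 at ZT0 (3.64-fold, adjusted p = 8.52e-05), and its ZT18 arrays stood above the other 9. AT1G54050 was 8.77, 9.38 and 8.21 at ZT18 and 7.13, 6.81 and 7.15 at ZT0 (3.37-fold, adjusted p = 0.000162), and AT2G29500, chosen after its values were seen as was AT2G19310, was 6.82, 6.92 and 6.33 at ZT18 and 5.37, 4.75 and 5.37 at ZT0 (adjusted p = 0.000115). These 2 ran differently over the day, since both were higher at ZT12 (9.78 ± 0.21 and 7.86 ± 0.06) than at ZT18. AT2G19310 was 10.06, 9.84 and 9.29 at ZT18 and 9.10, 9.11 and 9.02 at ZT0 (adjusted p = 0.0105), the only fall of the 6 that did not pass with the control signal in the fit (adjusted p = 0.0553). All 6 falls passed without any 1 of the 12 arrays.

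Other chaperone genes gave a mixed picture. Hop3, a co-chaperone that links large heat-shock proteins, was 7.80, 8.87 and 6.24 at ZT18 and 4.37, 4.96 and 4.93 at ZT0, a 7.40-fold fall (adjusted p = 0.000941). Without ZT18 replicate 3 its log2 change was -3.59 and without ZT18 replicate 2 it was -2.27, in place of -2.89. With the control signal in the fit Hop3 did not pass (adjusted p = 0.0553). Its relatives Hop1 and Hop2, named after their values were seen, were at 10.70, 10.71 and 10.50 at ZT18 and 10.57, 10.35 and 10.59 at ZT0 and at 9.91, 9.78 and 9.68 at ZT18 and 10.00, 9.62 and 9.94 at ZT0, and did not pass. AT3G09440, a large heat-shock protein gene of the HSP70 class, rose from 4.72, 5.19 and 4.12 to 6.10, 5.96 and 5.86 (adjusted p = 0.00153) and did not pass with the control signal (adjusted p = 0.0724). In the endoplasmic reticulum, BZIP17, a membrane-held stress transcription factor, rose 2.83-fold, from 6.24, 6.46 and 6.38 to 8.34, 7.78 and 7.46 (adjusted p = 0.000120). Of 7 genes of folding and the unfolded protein response in that compartment 5 rose, where 17.9% of all genes rose, and none fell. That count was 3 without ZT0 replicate 3, 3 without ZT18 replicate 1 and 1 with the control signal in the fit, where BZIP17 alone passed.

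AT5G12110, for which the annotation used here gives no function, was also among the 15 largest falls. It was 9.54, 9.76 and 7.96 at ZT18 and 5.65, 4.07 and 5.77 at ZT0 (15.2-fold, adjusted p = 7.97e-05) and was at 8.92 ± 0.32 at ZT6, so ZT0 was its low point. AT4G33550 was 8.33, 7.17 and 8.38 at ZT18 and 4.12, 3.91 and 5.34 at ZT0 (11.3-fold, adjusted p = 2.93e-05), with 9.57 ± 0.16 at ZT6. Others among the 15 largest falls were AT5G01015 (7.04-fold), AT5G09300 (6.86-fold) and AT1G70820 (6.30-fold), all lower at ZT0 than at the other 3 times, and AT3G23550 (8.46-fold), whose 3 ZT18 arrays stood above the other 9. AT5G37990 was 7.02, 8.51 and 8.33 at ZT18 and 5.88, 4.72 and 5.22 at ZT0 and passed (adjusted p = 0.0160). It did not pass without ZT0 replicate 2 or ZT18 replicate 2 (up to adjusted p = 0.0614). Nor did it pass with the control signal in the fit (adjusted p = 0.0895), where its log2 change was -3.13 in place of -2.68. Among the largest rises without a known role here, AT4G15430 was 4.87, 4.82 and 4.44 at ZT18 and 7.90, 7.65 and 7.90 at ZT0 (8.62-fold, adjusted p = 1.47e-06). AT3G15440 was 6.05, 6.37 and 4.09 at ZT18 and 8.38, 9.10 and 7.40 at ZT0 (6.92-fold, adjusted p = 0.00125), and its change was 2.08 without ZT18 replicate 3 in place of 2.79.

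**Figure D4:**
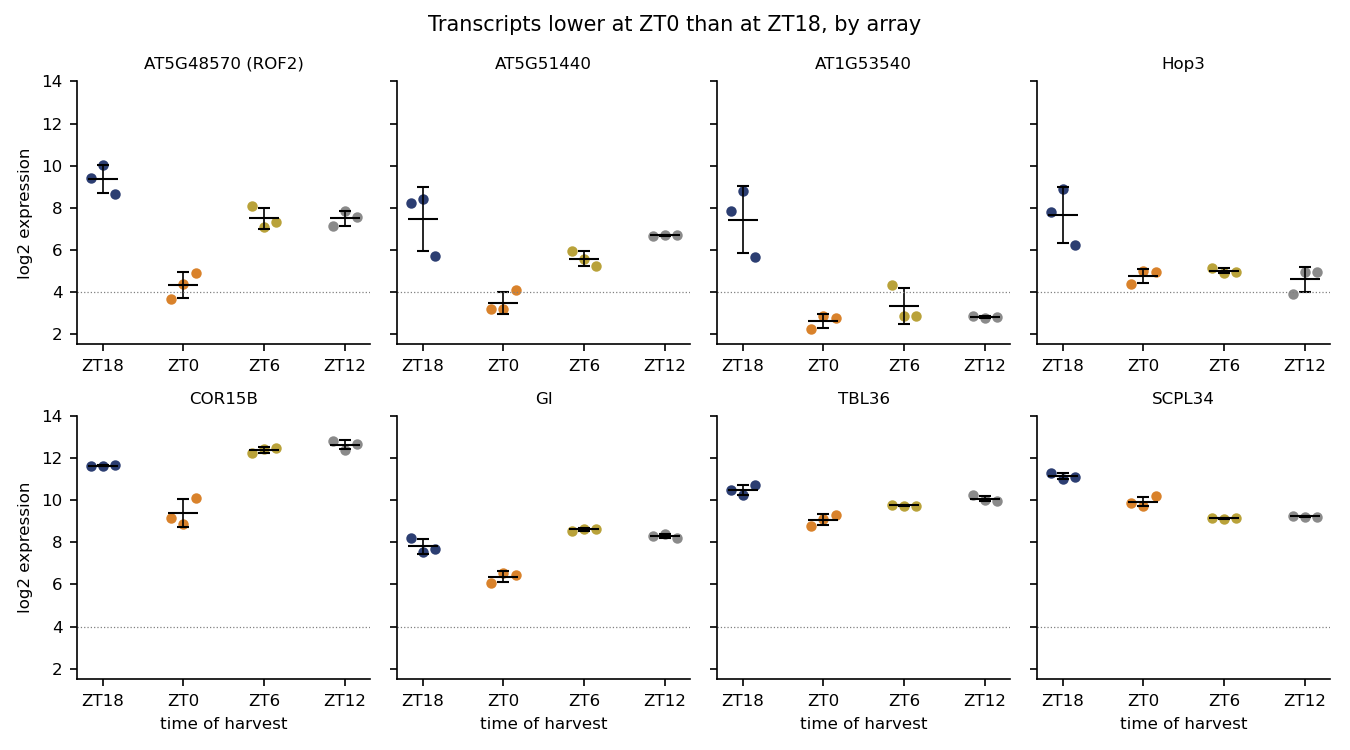
Log2 expression (vertical axis) on each of the 12 arrays at the 4 times of harvest for 8 transcripts that were lower at ZT0 than at ZT18, with mean and SD (n = 3) and a dotted line at the detection limit of 4. AT5G48570, COR15B, GI and TBL36 are lowest at ZT0 among the 4 times, and AT1G53540, Hop3 and SCPL34 are highest at ZT18.

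Clock and cold-regulated genes were partly lower at ZT0. GIGANTEA (GI), a clock protein that also times flowering by day length, was 8.22, 7.54 and 7.69 at ZT18 and 6.08, 6.55 and 6.47 at ZT0, a 2.73-fold fall (SE 0.18, adjusted p = 9.38e-05), and its ZT0 arrays were the lowest of the 12. Of the other measured clock genes, AT5G52660 (7.28, 7.32 and 7.50 at ZT18 and 7.39, 7.63 and 7.69 at ZT0) and COR27 (12.39, 12.15 and 12.10 at ZT18 and 12.59, 12.71 and 12.29 at ZT0) did not pass. AT4G33980 was 9.86, 9.98 and 9.82 at ZT18 and 8.28, 9.27 and 8.11 at ZT0 and fell (adjusted p = 0.0291). That fall did not pass without any 1 of ZT0 replicates 1 and 3 and the 3 ZT18 replicates (up to adjusted p = 0.0975). AT4G01280 went the other way, with 6.08, 6.24 and 5.84 at ZT18 and 6.53, 6.49 and 6.56 at ZT0 (adjusted p = 0.0387). Its rise did not pass without any 1 of the 3 ZT0 replicates and ZT18 replicates 1 and 3 (up to adjusted p = 0.128). COR15B, a cold-induced protein that protects chloroplast membranes, was 11.65, 11.63 and 11.70 at ZT18 and 9.17, 8.85 and 10.13 at ZT0 (4.84-fold, adjusted p = 3.58e-05). Its relative COR15A was 11.25, 11.10 and 11.65 at ZT18 and 9.61, 8.87 and 10.86 at ZT0 (2.94-fold, adjusted p = 0.00521). Of 10 cold and dehydration genes 3 fell, none rose and 7 did not pass, where 17.6% of all genes fell. The third fall, of AT2G44060, was small (log2 change -0.43, adjusted p = 0.0371). It did not pass without ZT0 replicate 1 or 2, ZT18 replicate 1 or 2, ZT6 replicate 2 or ZT12 replicate 2 (up to adjusted p = 0.145). AT1G69570, a CYCLING DOF FACTOR that represses flowering, was 9.04, 8.25 and 8.43 at ZT18 and 9.52, 9.23 and 9.53 at ZT0 (adjusted p = 0.00409), a rise that did not pass with the control signal in the fit (adjusted p = 0.272).

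Several nuclear genes of photosynthesis and carbon storage were lower at ZT0. SBPASE, an enzyme of the Calvin cycle, was 13.80, 13.62 and 13.44 at ZT18 and 13.15, 12.76 and 13.03 at ZT0 (1.56-fold, adjusted p = 0.00126), and AT1G56190, a phosphoglycerate kinase gene, was 11.87, 11.81 and 11.49 at ZT18 and 11.17, 10.83 and 11.13 at ZT0 (adjusted p = 0.000690). LHCB4.3, a minor antenna protein of photosystem II, was 7.40, 7.38 and 6.47 at ZT18 and 5.48, 5.79 and 5.65 at ZT0 (2.72-fold, adjusted p = 0.000397), while LHCB4.1 and LHCB4.2 did not pass. Of 27 measured genes of the photosystems and their antennae, most of them encoded in the plastid, 3 fell (LHCB4.3, PSBW and PSAE-1, all nuclear), 2 rose (psaB and psbI, both of the plastid) and 22 did not pass. Falls (11.1%) and rises (7.41%) in this group were thus below the shares of all genes (17.6% and 17.9%). The 2 rises were 0 without ZT0 replicate 1, ZT0 replicate 2, ZT18 replicate 2 or ZT18 replicate 3. They were 6 without ZT18 replicate 1 and 4 with the replicate number as a block. Of 8 genes of chlorophyll synthesis 3 fell (PORB, HEME1 and CHLI2) and 5 did not pass. CHLI2 did not pass with the control signal in the fit (adjusted p = 0.0630), and none of the 3 passed with the mean of 6 control pairs in it. PORB, which makes chlorophyllide in the light, was 12.26, 12.27 and 12.21 at ZT18 and 11.49, 11.03 and 11.78 at ZT0 (adjusted p = 0.00104). In starch synthesis APL3, a subunit of the enzyme that makes the glucose donor, was 4.78, 4.77 and 4.72 at ZT18 and 3.36, 3.04 and 4.50 at ZT0 (adjusted p = 0.00857), and the branching enzyme SBE2.2 was 10.59, 10.86 and 10.93 at ZT18 and 9.97, 9.71 and 10.21 at ZT0 (adjusted p = 0.00255). Neither passed with the control signal in the fit (adjusted p = 0.0663 and adjusted p = 0.156). The log2 change of APL3 was -1.27 there in place of -1.12, and that of SBE2.2 was -0.48 in place of -0.83. With values raised to 4, the change of APL3 without the control signal was -0.59. PWD, which acts in starch breakdown, fell by 0.43 on the log2 scale (adjusted p = 0.00974).

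Nuclear genes for the assembly of chloroplast complexes and for editing of organelle RNA included 5 falls and no rise among 12 tested. The share of falls among all genes was 17.6%. CRR22, a pentatricopeptide repeat protein needed for editing of plastid transcripts, was 6.27, 6.11 and 5.61 at ZT18 and 4.69, 4.85 and 4.42 at ZT0 (2.54-fold, adjusted p = 0.000201). CRR42, which is needed for the chloroplast NDH complex, was 9.75, 9.12 and 9.01 at ZT18 and 7.98, 8.20 and 7.96 at ZT0 (2.38-fold, adjusted p = 0.000173). The count of falls was 3 without ZT0 replicate 1 and 3 without ZT0 replicate 2. Genes of the plastid genome itself gave 7 rises, 57 that did not pass and no fall among 64. In the reported fit this share of rises was under that of all genes, although the median change was 0.36. The count of rises was 4 without ZT0 replicate 1 and 3 without ZT18 replicate 3. It was 30 without ZT18 replicate 1 and 22 with the replicate number as a block. Of all 14016 probe sets 2538 and 3059 rose in the fits that gave 30 and 22. Whether the share of rises lay under or above that of all tested thus depended on the fit. With the control signal in the fit their median change was -0.05. The labels describe priming by oligo(dT), and chloroplast transcripts mostly lack a poly(A) tail. ycf3, which assists the assembly of photosystem I, was 6.79, 7.65 and 7.23 at ZT18 and 8.33, 8.85 and 8.50 at ZT0 (2.52-fold, adjusted p = 0.000367).

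Of 103 cytosolic ribosomal protein genes tested, 66 rose, most of them by little. Loci were again assigned from general knowledge: of 195 listed, 110 had a probe set. Values are uncertain where probes match a near-identical copy. The other 37 did not pass and none fell, where 17.9% of all genes rose, and changes over the 103 ran from -0.17 to 1.64 with a median of 0.35. AT5G39850 was 3.74, 3.88 and 4.17 at ZT18 and 6.28, 5.46 and 4.97 at ZT0 (3.11-fold, adjusted p = 0.00112), and AT1G15250 was 7.37, 7.89 and 7.78 at ZT18 and 9.28, 8.86 and 8.15 at ZT0 (2.12-fold, adjusted p = 0.00377). The count of rises was 43 without ZT0 replicate 1. With the control signal in the fit only 9 of the 66 passed and the median change was 0.16, while 18.6% of all genes passed in either direction in that fit. AT5G14520 (PESCADILLO), a factor of ribosome assembly and the only measured member of its list, was 7.97, 8.99 and 8.91 at ZT18 and 10.04, 9.93 and 9.53 at ZT0 (2.31-fold, adjusted p = 0.00166), and it also passed in that fit (adjusted p = 0.0124).

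**Figure D5:**
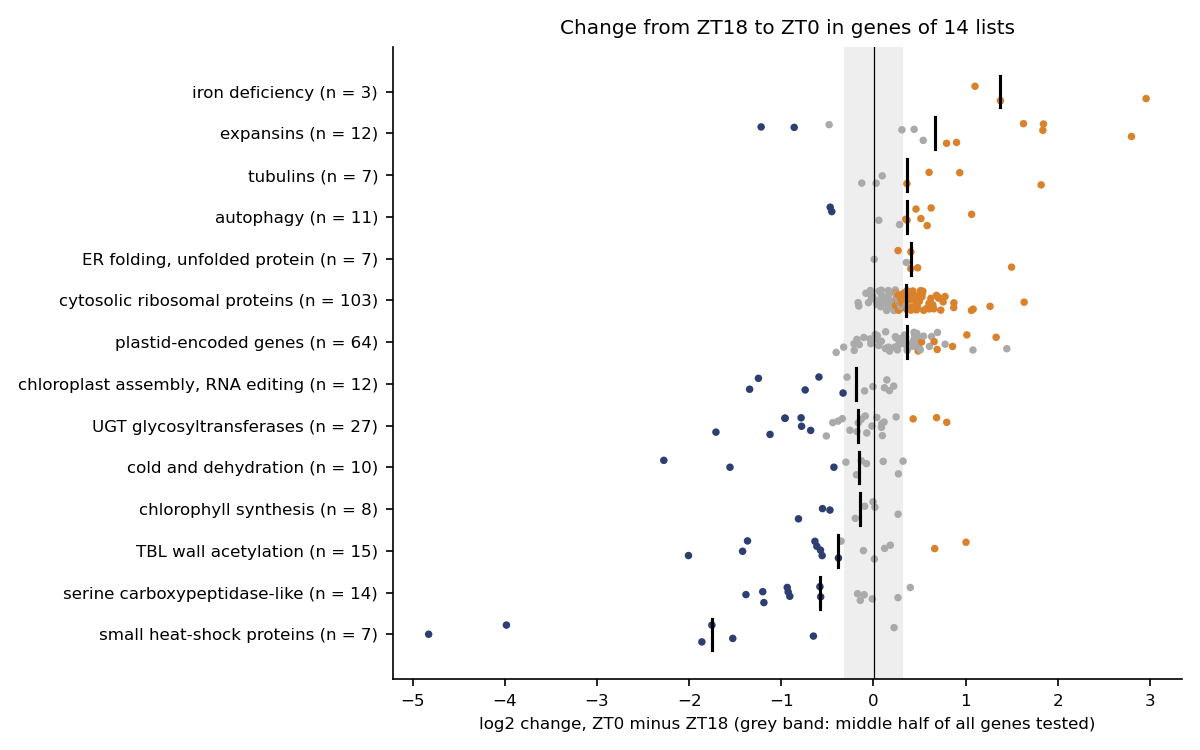
Log2 change from ZT18 to ZT0 (horizontal axis) of each tested gene in 14 gene lists, with orange points higher at ZT0, blue points lower at ZT0 and grey points not past the threshold; black bars are list medians and the grey band spans the quartiles of all 7573 genes (-0.31 to 0.31). The medians run from -1.75 for the small heat-shock group to 1.38 for the 3 iron genes.

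Genes of autophagy, the pathway that delivers cell contents to the vacuole for breakdown, included 7 rises, 2 falls and 2 that did not pass among 11. Over all genes 17.9% rose and 17.6% fell. ATG8 proteins are lipid-anchored tags of the autophagosome membrane. ATG8B was 10.14, 10.15 and 10.59 at ZT18 and 11.51, 11.23 and 11.35 at ZT0, a 2.09-fold rise (adjusted p = 0.000225), and its call held with the control signal in the fit, whereas those of ATG8H, APG8A and ATG8G did not. The count of rises was 3 without ZT18 replicate 2, 4 without ZT18 replicate 3 and 1 with the control signal in the fit. The 2 falls were 0 without ZT0 replicate 1, 1 without ZT0 replicate 2 or ZT18 replicate 1, and 1 with the control signal in the fit. The list median was 0.37, and 0.04 in that fit.

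Serine carboxypeptidase-like (SCPL) genes are a family of proteases and acyltransferases. Of 14 tested 8 fell, 6 did not pass and none rose, where 17.6% of all genes fell. Their median change was -0.58. SCPL34 was 11.29, 11.01 and 11.13 at ZT18 and 9.90, 9.74 and 10.19 at ZT0 (2.30-fold, adjusted p = 2.16e-05), and its ZT18 arrays stood above the other 9. The gene scpl46 was 6.73, 6.94 and 6.78 at ZT18 and 5.65, 5.21 and 5.44 at ZT0 (2.61-fold, adjusted p = 4.55e-05) and was higher by day, at 7.62 ± 0.08 at ZT6, so its ZT0 arrays were the low ones. SCPL45 was 11.03, 10.97 and 11.09 at ZT18 and 9.97, 10.00 and 10.31 at ZT0 (adjusted p = 0.000190). Of the 8 falls 6 passed with the control signal in the fit.

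UGT glycosyltransferases attach sugars to hormones and secondary metabolites. Of 27 tested 7 fell (25.9%), 3 rose (11.1%) and 17 did not pass, where 17.6% of all genes fell and 17.9% rose. Their median change was -0.16. UGT85A4 was 9.79, 9.46 and 9.04 at ZT18 and 7.60, 8.00 and 7.56 at ZT0 (3.27-fold, adjusted p = 7.64e-05), and UGT85A2 was 10.88, 10.29 and 10.22 at ZT18 and 9.59, 9.23 and 9.21 at ZT0 (adjusted p = 0.000368). The 3 rises were 1 without ZT0 replicate 1 and 1 without ZT18 replicate 3. With the control signal in the fit 4 UGT genes fell and 1 rose. In glucosinolate synthesis BCAT4, which starts the lengthening of the methionine side chain, was 9.81, 9.42 and 9.30 at ZT18 and 7.76, 7.96 and 9.09 at ZT0 (2.37-fold, adjusted p = 0.00323). Of aldehyde dehydrogenase genes 3 of 8 rose and none fell, and ALDH7B4, which responds to osmotic stress, was 11.69, 11.52 and 11.59 at ZT18 and 12.59, 12.60 and 12.42 at ZT0 (1.91-fold, adjusted p = 1.34e-05).

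Of 6 genes listed for the cell cycle 3 fell and none rose, and of 7 histone genes 2 rose and 2 fell. Over all genes 17.9% rose and 17.6% fell. The smallest of the 3 cell cycle falls was that of AT5G48460 (log2 change -0.35, adjusted p = 0.0447), to which the annotation used here gives no function. It did not pass with median centring, nor without any 1 of the 3 ZT0 replicates, among other arrays (up to adjusted p = 0.171). HTR12, the centromeric histone H3, was 6.53, 6.43 and 6.67 at ZT18 and 4.91, 5.50 and 5.09 at ZT0, a 2.60-fold fall (adjusted p = 7.97e-05). AUR1, an Aurora kinase of mitosis, was 8.04, 7.55 and 8.20 at ZT18 and 6.85, 6.69 and 7.24 at ZT0 (2.00-fold, adjusted p = 0.00118). With the control signal in the fit 1 of the 3 cell cycle falls, 1 of the 2 histone falls and neither histone rise passed, and without ZT0 replicate 1 a cell cycle gene rose. The histone falls were 1 without ZT0 replicate 1 and 1 without ZT18 replicate 3. BZIP24, a transcription factor of the salt response, was 6.35, 6.13 and 6.56 at ZT18 and 5.01, 5.36 and 5.06 at ZT0 (adjusted p = 0.000479). BGLU42, a beta-glucosidase of root iron and defence responses, was 10.01, 9.85 and 10.06 at ZT18 and 8.93, 9.15 and 9.33 at ZT0 (adjusted p = 0.000224).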

How the data were processed

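The 12 Affymetrix Arabidopsis arrays were hybridised with biotin-labelled cRNA, per the labels' protocols. The deposited values are log2 expression values per probe set, 1 per array and not pooled. The submitters' processing notes name R 3.1, affy 1.42.3 and GCRMA; their settings are not given in the sources used here. The values give no read depth, and the number of arrays limits the precision. Groups followed the sample titles. Nothing says that replicates came from separate plants, so the spread behind each p-value may be technical.

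Of 22746 probe sets without the 64 chip controls, 14016 reached 4 on at least 3 of 12 arrays and were tested in R 4.3.3 with limma 3.58.1 (lmFit on 1 mean per time, all 12 arrays, then eBayes with a trend of variance on mean). Tests were two-sided with Benjamini-Hochberg adjustment over the 14016, and every adjusted p in the text is limma's. SE comes from this fit. A fold is "at least", with values raised to 4, if no array of the dim time reached 4. The code was tested on simulated data.

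The platform annotation gave 1 gene for 7610 of the tested probe sets, several for 299 and none for 6107, which stay unnamed. Each of 7573 genes took the probe set with the highest mean, and 7550 matched the RefSeq table of TAIR10.1. CCA1 itself has no named probe set and is not analysed here. Genes were named by rule: the 15 largest rises and 15 largest falls among called genes with groups that do not overlap (values raised to 4), up to 4 called members per list with the largest change, and all measured genes of the clock, flowering, light-signalling and shade lists. Exceptions are marked. Of the lists, 51 were written first and 24 added once the annotation was known to name few genes by symbol; all members and lists were chosen with earlier results of these data known. Lists are described by counts and medians, without a test.

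Replicate numbers in the titles paired the samples by the rule used here: deviations of ZT0 and ZT18 arrays with the same number correlated at 0.25, 0.18 and 0.32. The fit without the replicate block is the one reported. Alternatives covered the detection limit, the arrays fitted, centring, variance model, control signal, replicate block and leaving out each array. A planned description of promoter motifs was not run, since no promoter sequence was used here.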

Additional observations from a re-analysis of the deposited data

How the results depend on the processing

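The count of 5187 called probe sets changed with the 3' minus 5' control signal. With it as a covariate 2788 passed (1338 higher at ZT0 and 1450 lower), and with the mean of 6 control pairs, chosen after seeing the data, 1964 passed (972 higher and 992 lower). A plain test without moderation on the 6 arrays gave 1184, with 4619 at an unadjusted p under 0.05. Grouping by the other label for the time of harvest gave 0 by limma, with 120 at an unadjusted p under 0.05. With the replicate number as a block 6004 passed, 5168 of them among the 5187. Beside the block values in the report, it changed no other call of a gene named by rule and moved no other count given for a gene group by over 1.5 times. Leaving out each array in turn gave 3909 (without ZT0 replicate 1) to 5415 calls (without ZT0 replicate 3), with 1883 to 2647 higher, 2026 to 2771 lower and 1061 to 1470 of at least 2-fold. Median centring, which shifts all changes by 0.05, moved the share of higher calls from 50.1% to 56.2%. The fits by harvest label and without moderation aside, 70 of 176 called genes by name passed in every fit in which they were tested. In every such fit without a covariate 131 passed. Some named genes, such as EXPA21, were not tested with the detection limit at 5. Directions turned in AT2G43030 (-0.014 with the covariate), psbI (-0.061 and, with 6 pairs, -0.32) and TET7 (-0.0047 and -0.050), none of which passed there. The cause of these changes was not tested.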

Other observations

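The 2 largest rises and the 2 largest falls among probe sets that the annotation does not name were looked at after their values were seen. The steepest of these was a rise from a mean of 2.46 ± 0.40 at ZT18 to 9.90 ± 0.32 at ZT0 (n = 3, at least 59.6-fold with values under 4 raised to 4), in a probe set that stood at 4.27 at ZT6 and 2.97 at ZT12, and was thus highest at ZT0. The next rose from 5.63 ± 0.34 to 10.19 ± 0.37 and stayed at 10.29 at ZT6 and 10.01 at ZT12, and was thus lowest at ZT18. With the same floor, the largest falls were from 10.11 ± 2.76 to 6.49 ± 1.07, with ZT18 arrays far apart, and from 11.46 ± 0.27 to 7.90 ± 0.21, where the ZT12 mean was 11.80. The first of these falls passed limma (adjusted p = 0.0220) but not in the fit to the 6 arrays, nor without ZT0 replicate 2 or ZT18 replicate 1 (up to adjusted p = 0.0867).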
